A study of Homo sapiens with 12 samples.

Results

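The proteasome genes were taken as the protein-coding genes whose symbol begins with PSMA, PSMB, PSMC, PSMD or PSME, which gave 45 genes of the 78892 rows of the table. Of these, PSMB8, PSMB9, PSMB10, PSME1 and PSME2 were set apart as the interferon-inducible genes and contrasted with the other 40. By role, the 45 were 7 subunits of the 20S alpha ring and its testis form PSMA8, 4 non-catalytic and 3 constitutive catalytic subunits of the beta ring, 3 immunoproteasome catalytic subunits, the thymic catalytic subunit PSMB11, 6 ATPases and 11 non-ATPase subunits of the 19S particle, 3 of its assembly chaperones, 4 activators of the PSME series, and 2 genes that share the prefix but encode no subunit, PSMC3IP and PSME3IP1. Expression was high enough to test in 44, and PSMB11, with 3 counts over all 12 libraries, was not tested.

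OCI-Ly7, a human cell line of diffuse large B-cell lymphoma, was given 5-azacitidine, an HDAC3 inhibitor, both or vehicle, with 3 libraries in each of 4 groups. 5-azacitidine (5-AZA), a cytidine analogue that inhibits DNA methyltransferases, was at 100 nM on each day from day 0 to day 4. The inhibitor of the histone deacetylase HDAC3 (HDAC3i; the compound is not named) was at 15 µM on day 2 and day 4, and messenger RNA was sequenced on day 5. The vehicle group had 0 nM and 0 µM, the HDAC3i group the inhibitor without 5-AZA, the 5-AZA group the reverse, and the combined group both. All 4 groups are 1 cell line. Separate cultures are not named in the labels, so the p-values rest on a spread among libraries that could be technical only.

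The proteasome degrades proteins tagged with ubiquitin. Its 20S core is a barrel of alpha rings around beta rings, and PSMB5, PSMB6 and PSMB7 carry the cutting sites. A 19S cap recognises, unfolds and feeds in the substrate. Interferon-gamma induces PSMB8, PSMB9 and PSMB10, which take the places of PSMB5, PSMB6 and PSMB7 in newly built cores, and the activator PA28, made of PSME1 and PSME2. Such immunoproteasomes are abundant in lymphoid cells and favour peptides that fit MHC class I.

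Of these genes, 3 rose and 29 fell with the inhibitor alone, where 26.4% of all genes tested rose and 24.9% fell, and 17.1% and 51.2% of abundant protein-coding genes (at least 50 CPM, that is, TMM-scaled counts as a share of the library). PSMB9 and PSMB8 rose, while PSMB5 and PSMB6, the subunits they replace, fell, so that within each library the ratio PSMB8/PSMB5 was 1.71-fold and PSMB9/PSMB6 1.66-fold higher where the inhibitor was present. PSMB10 and PSME2 fell with most of the constitutive genes, and PSME1 did not pass the test. With 5-AZA alone 2 of the 44 genes tested fell, PSMD1 and PSMD3, and none rose. Of all genes tested 4.75% fell and 4.31% rose, and of abundant protein-coding genes 11.2% and 4.89%. Both calls were lost when certain single libraries were left out. Adding 5-AZA to the inhibitor changed none of the 44 beyond the test's threshold, where 7.34% of all genes tested changed either way.

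The libraries held 35947872 to 36337086 counts each, and the biological coefficient of variation was 6.05% over the 17869 genes tested. All 7 B-cell markers were detected in every group, at a summed CPM of 2385 to 2532 in vehicle and 3237 to 3317 with the inhibitor. With the inhibitor 5 of the 7 were called higher, MS4A1 most (0.73 on the log2 scale), and BCL6 (-0.18, adjusted p = 0.005) and MME (-0.27, adjusted p = 0.0011) lower. The 4 T-cell, 5 myeloid and 4 stromal or epithelial markers summed to at most 10.2, 3.28 and 7.23 CPM in any library. The sums were higher where the inhibitor was present, mostly through CD3E, LYZ and COL1A1, and not every marker rose. CD14 was at 0.36 CPM in vehicle and 0.30 with HDAC3i, and CD8A, S100A8, COL1A2 and KRT18 were at 0 in every group. Mitochondrially encoded genes took 9.59% to 10.5% of counts in vehicle, 12.1% to 13.0% with the inhibitor, 10.01% to 13.8% with 5-AZA and 12.5% to 15.3% with both. The 45 proteasome genes took 0.764% to 0.785%, 0.662% to 0.695%, 0.752% to 0.764% and 0.644% to 0.681% in the same order. The part of these markers and shares in the results was not tested directly. Fits were also run without the mitochondrially encoded genes and without the 2 libraries of highest mitochondrial share (5-AZA 1 and combined 3), and the calls of PSMA1, PSMA2, PSMA8, PSMB7, PSMB10, PSMD4, PSMD10, PSME1 and PSME3 changed in some comparison without those 2 libraries. In RNA from bulk cultures, fewer cells of a type and less RNA per cell cannot be told apart.

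The start-site windows of the 5 inducible genes are printed because 4 of them hold the letters bound by interferon-activated factors in other settings, while the genes themselves did not move together here. Each window runs from 250 bases before the start to 50 after it, 5′ to 3′ on the gene's strand, from RefSeq on GRCh38.p14. Capitals mark matches to the interferon-stimulated response element (ISRE), read here as GAAA, any 2 bases and GAAA again, on either strand. The windows are chr6:32843998-32844297 for PSMB8 (minus strand), chr6:32853942-32854241 for PSMB9 (plus), chr16:67936801-67937100 for PSMB10 (minus), chr14:24135944-24136243 for PSME1 (plus) and chr14:24146561-24146860 for PSME2 (minus). The window printed for TAP1, the peptide transporter gene that lies head to head with PSMB9, is chr6:32853655-32853954 (minus).
PSMB8: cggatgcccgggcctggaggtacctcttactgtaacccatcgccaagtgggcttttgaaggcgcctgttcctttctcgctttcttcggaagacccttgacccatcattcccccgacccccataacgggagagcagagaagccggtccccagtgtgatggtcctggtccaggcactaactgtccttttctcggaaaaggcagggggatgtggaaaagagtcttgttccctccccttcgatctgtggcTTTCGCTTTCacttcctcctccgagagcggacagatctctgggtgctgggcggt
PSMB9: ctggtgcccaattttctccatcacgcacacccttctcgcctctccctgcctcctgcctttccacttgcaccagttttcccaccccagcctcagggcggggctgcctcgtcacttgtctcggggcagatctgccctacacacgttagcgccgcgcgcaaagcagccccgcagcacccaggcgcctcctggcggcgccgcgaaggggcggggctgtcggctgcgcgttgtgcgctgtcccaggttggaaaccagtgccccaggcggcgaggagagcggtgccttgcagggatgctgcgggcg
PSMB10: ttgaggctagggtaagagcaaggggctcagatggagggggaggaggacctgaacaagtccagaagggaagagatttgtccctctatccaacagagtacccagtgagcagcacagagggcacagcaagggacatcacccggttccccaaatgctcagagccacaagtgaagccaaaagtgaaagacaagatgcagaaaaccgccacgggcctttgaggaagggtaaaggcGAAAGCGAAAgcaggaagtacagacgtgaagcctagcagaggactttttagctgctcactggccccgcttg
PSME1: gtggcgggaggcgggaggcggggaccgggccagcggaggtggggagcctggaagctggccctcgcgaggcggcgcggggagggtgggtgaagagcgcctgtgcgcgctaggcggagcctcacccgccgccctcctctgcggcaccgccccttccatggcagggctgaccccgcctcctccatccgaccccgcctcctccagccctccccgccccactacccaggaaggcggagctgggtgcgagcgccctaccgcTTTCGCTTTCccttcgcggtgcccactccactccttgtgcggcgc
PSME2: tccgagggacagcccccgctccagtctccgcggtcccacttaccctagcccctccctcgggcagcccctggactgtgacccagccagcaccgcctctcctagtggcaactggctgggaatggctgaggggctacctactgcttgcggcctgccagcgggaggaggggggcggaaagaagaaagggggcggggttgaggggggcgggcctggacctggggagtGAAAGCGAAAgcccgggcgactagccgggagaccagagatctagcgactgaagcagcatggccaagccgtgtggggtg
TAP1: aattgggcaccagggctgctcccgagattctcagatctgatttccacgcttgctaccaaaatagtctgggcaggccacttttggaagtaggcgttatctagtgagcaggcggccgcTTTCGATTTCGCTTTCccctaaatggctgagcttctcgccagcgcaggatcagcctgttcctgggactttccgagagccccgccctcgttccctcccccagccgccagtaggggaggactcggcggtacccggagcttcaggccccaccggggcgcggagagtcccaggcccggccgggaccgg

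The match read GAAAGCGAAA, on one strand or the other, in PSMB8, PSMB10, PSME1 and PSME2 and in the TAP1 window. Those exact letters, chosen after the matches were seen, stood in 35 of 35116 RefSeq windows of this length, or 0.0997%. The match began 21 bases before the start in PSMB10 and 28 before it in PSME2, spanned the start in PSMB8 and began 5 bases after it in PSME1. PSMB9's own window held no match. It overlapped the TAP1 window by 13 bases, and the 2 starts lay 487 bases apart. The nearer of the 2 TAP1 matches ended 354 bases before the PSMB9 start used here. The exons counted for PSMB9 begin farther upstream, at chr6:32844136, inside the PSMB8 window. On the PSMB9 strand the PSMB8 match lies before that position. PSMB8 and TAP1 each had 2 windows, and the matches were in the one printed.

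Of the 45 genes, 40 had a window and 6 of these held an ISRE-like match (the other two are PSMA4 and PSMB4), against 3.57% of all windows. The interferon-gamma activated sequence written as TTCNNNGAA was in 8 of the 40 (7.66% of windows), PSMB8 and PSMB5 among them. The antioxidant-response core TGACNNNGC, related to the sites of the proteasome activator NRF1, was in 13 (13.3%), and CCAAT in 21 (34.6%). An NF-kB-like motif was in 2, PSMA4 and PSMA8 (11.3%). All were read on both strands, overlapping matches were kept, and the share over genes counts any window of a gene, so it is not on the same footing as the share over windows. A match is a description of letters, and a window without one says nothing of the factor. PSMB8 and PSMB10 share the 10 letters and moved in opposite directions with the inhibitor. PSME2 fell with them, and PSMB9 rose without them in its RefSeq window. That window lies beside the TAP1 window that holds them. The exons counted for PSMB9 begin inside the PSMB8 window, which holds them too. Whether any of these matches bears on the changes was not tested.

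Among the immunoproteasome catalytic genes, PSMB9 (β1i, chr6:32844136-32860734) showed the clearest rise. It stood at 99.3, 101 and 109 CPM in the vehicle libraries, 132, 136 and 138 with HDAC3i, 103, 97.5 and 105 with 5-AZA and 129, 142 and 131 with both. All 6 libraries with the inhibitor lay above all 6 without it. The log2 change was 0.40 ± 0.05 (SE, adjusted p = 8.2e-07) with the inhibitor against vehicle and 0.40 ± 0.05 (SE, adjusted p = 6.7e-07) with both against 5-AZA, by edgeR's quasi-likelihood test with Benjamini-Hochberg adjustment over all genes, which is used throughout. With 5-AZA against vehicle it was -0.02 ± 0.05 (SE, adjusted p = 0.9).

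PSMB8 (β5i, chr6:32840717-32844679) rose less. Its values were 234, 223 and 248 CPM in vehicle, 274, 265 and 265 with HDAC3i, 259, 248 and 254 with 5-AZA and 278, 301 and 260.0 with both. The HDAC3i libraries lay above vehicle, and the 5-AZA libraries overlapped vehicle by 1 library. The log2 change was 0.19 ± 0.06 (SE, adjusted p = 0.0055) with the inhibitor, 0.11 ± 0.06 (SE, adjusted p = 0.24) with 5-AZA and 0.25 ± 0.06 (SE, adjusted p = 3.1e-04) with both against vehicle. Against 5-AZA the combined group was higher by 0.14 ± 0.05 (SE, adjusted p = 0.033), a call lost without 5-AZA 2, 5-AZA 3, combined 1 or combined 2 (adjusted p up to 0.21) and with no filter on low counts (0.061), in a fit of only these groups (0.065) and with the number in the library name as a block (the library-name block, 0.053). PSMB8 shares 17.3% of its exon bases with PSMB9 and the antisense gene PSMB8-AS1. Reads over more than 1 gene were not counted, and PSMB8-AS1 held 108 to 189 counts a library beside 8171 to 10754 for PSMB8.

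PSMB10 (β2i, chr16:67934506-67936864) went the other way. It was at 39.5, 34.7 and 42.0 CPM in vehicle, 34.6, 28.4 and 33.6 with HDAC3i, 40.9, 45.8 and 43.1 with 5-AZA and 34.3, 35.3 and 29.7 with both. The HDAC3i libraries lay just below vehicle, the highest at 34.6 CPM against the lowest vehicle at 34.7, and the combined group overlapped vehicle. The log2 change was -0.27 ± 0.08 (SE, adjusted p = 0.0078), a call lost without vehicle 3 (adjusted p = 0.059) or HDAC3i 2 (0.084). It was -0.39 ± 0.08 (SE, adjusted p = 2.1e-04) for both drugs against 5-AZA, and 0.16 ± 0.08 (SE, adjusted p = 0.25) for 5-AZA against vehicle. Of its exon bases 39.4% are shared with an unnamed gene on the same strand that held 41 to 111 counts a library, and reads over both were not counted.

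**Figure D1:**
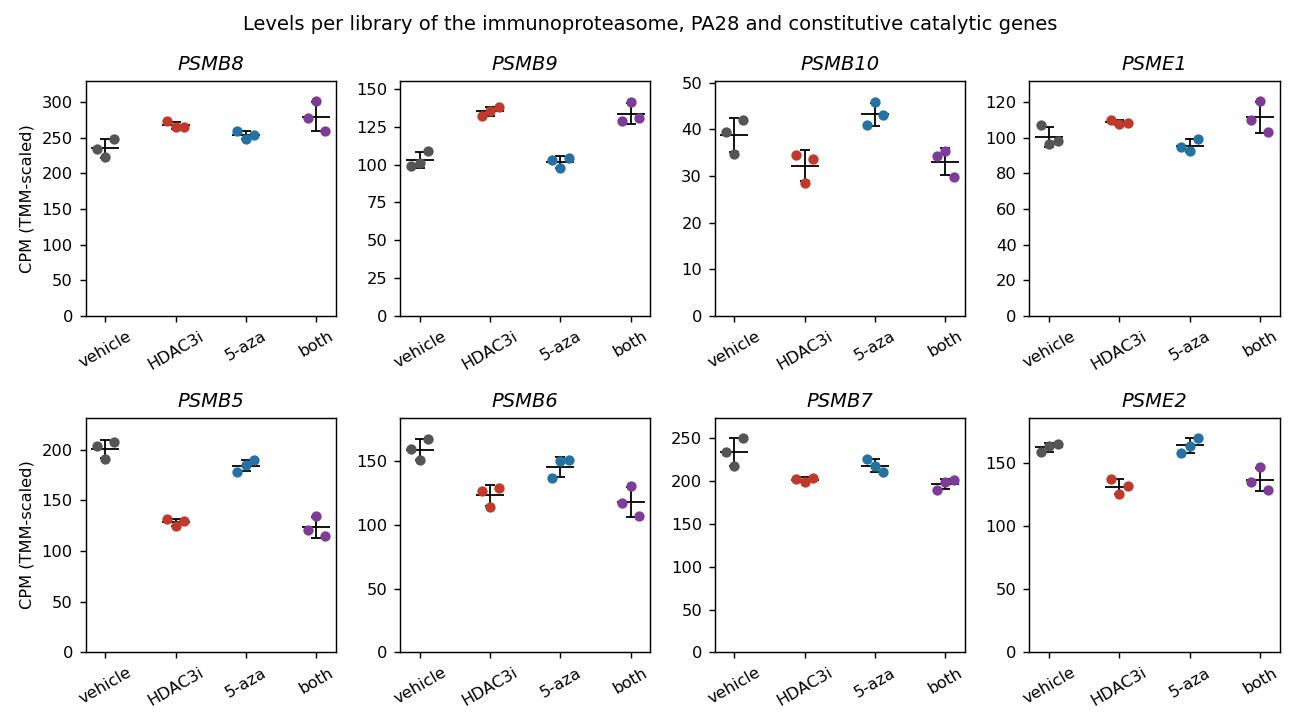
CPM (TMM-scaled, linear axes from 0) of 8 proteasome genes in each of the 12 libraries by group; bars are the mean ± SD of 3 libraries. The 6 libraries with the inhibitor (HDAC3i, both) lie above the other 6 for PSMB9 and below them for PSMB5, PSMB6, PSMB7 and PSME2, with the 5-AZA libraries near vehicle.

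The constitutive catalytic genes fell, PSMB5 most of the 3. PSMB5 (β5, the chymotrypsin-like site, chr14:23016543-23035230) was at 203, 191 and 208 CPM in vehicle and 132, 124 and 129 with HDAC3i. It was at 178, 184 and 189 with 5-AZA and 120.5, 135 and 115 with both. No library with the inhibitor reached the lowest library without it, and the fall of 0.65 ± 0.06 (SE, log2, adjusted p = 3.6e-10) was the lowest log2 change of the 44 genes. Of 3988 protein-coding genes of at least 50 CPM, 66 fell more, or 1.65%. Against 5-AZA the combined group was lower by 0.58 ± 0.06 (adjusted p = 2.4e-09), and 5-AZA alone gave -0.12 ± 0.06 (SE, adjusted p = 0.19), with its 3 libraries just below those of vehicle.

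PSMB6 (β1, the caspase-like site, chr17:4796144-4798502) was at 159, 150.4 and 167 CPM in vehicle, 126, 113.7 and 128 with HDAC3i, 136, 149 and 150.3 with 5-AZA and 117, 130.2 and 106 with both. Every library with the inhibitor lay below every vehicle and 5-AZA library, with a log2 change of -0.37 ± 0.07 (SE, adjusted p = 3.3e-05). PSMB7 (β2, the trypsin-like site, chr9:124353465-124415444) was at 234, 217 and 250.3 CPM in vehicle, 202, 199 and 204 with HDAC3i, 225, 217 and 211 with 5-AZA and 189.6, 199 and 201 with both. It fell least of the 3, by 0.21 ± 0.05 (adjusted p = 0.0014). Its fall in the combined group against 5-AZA, -0.15 ± 0.05 (SE, adjusted p = 0.019), lost its call without 5-AZA 1 (adjusted p = 0.093) or combined 1 (0.08), with the stricter filter of at least 5 CPM in 3 libraries (0.17) and without the 2 libraries of highest mitochondrial share (0.086).

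Per kilobase of annotated exon, vehicle cells held 129.5 ± 5.65 CPM of PSMB5, 109.7 ± 5.67 of PSMB6 and 131 ± 9.20 of PSMB7 (SD, n = 3). The inducible genes were at 67.5 ± 3.68 for PSMB8, 24.4 ± 1.21 for PSMB9 and 23.8 ± 2.27 for PSMB10. By this measure PSMB8 was the highest of the inducible catalytic genes, while PSMB9 and PSMB10 differed by less than their SD. Reads over more than 1 gene were not counted, and PSMB10 shares 39.4% of its exon bases and PSMB8 17.3%. Their levels, and so the order of the genes, may be understated or changed by this, which was not tested. Exon length counts every annotated isoform, so a long rare exon lowers the level.

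The ratio of each inducible gene to the gene it replaces was taken within each library, per kilobase, so that no scaling between libraries enters. PSMB8/PSMB5 was 0.511, 0.520 and 0.532 in vehicle, 0.926, 0.948 and 0.914 with HDAC3i, 0.648, 0.599 and 0.596 with 5-AZA and 1.03, 0.997 and 1.01 with both. The 4 groups did not overlap and stood in the order vehicle, 5-AZA, HDAC3i, both. PSMB8 made up 34.3 ± 0.454% (SD, n = 3) of the summed PSMB8 and PSMB5 level in vehicle, 38.0 ± 1.10% with 5-AZA, 48.2 ± 0.469% with HDAC3i and 50.2 ± 0.374% with both. Over 6 libraries with and 6 without the inhibitor, permuting within 5-AZA strata, the log2 ratio was 0.78 higher (exact permutation test, two-sided, p = 0.005, the smallest that 400 allocations allow; adjusted over 6 tests, 0.01). For 5-AZA it was 0.18 higher (exact p = 0.005, adjusted 0.01), 1.13-fold.

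PSMB9/PSMB6 was 0.214, 0.230 and 0.224 in vehicle, 0.359, 0.409 and 0.369 with HDAC3i, 0.259, 0.224 and 0.239 with 5-AZA and 0.380, 0.373 and 0.420 with both. Every library with the inhibitor exceeded every one without it, by 0.73 on the log2 scale on average (exact permutation p = 0.005, adjusted 0.01). The 5-AZA difference of 0.08 did not pass (exact p = 0.145, adjusted 0.145). PSMB10/PSMB7 was 0.186, 0.176 and 0.184 in vehicle, 0.188, 0.157 and 0.181 with HDAC3i, 0.199, 0.232 and 0.225 with 5-AZA and 0.199, 0.195 and 0.163 with both. Here the inhibitor groups overlapped vehicle, the difference was -0.15 with the inhibitor (exact p = 0.085, adjusted 0.102) and 0.17 with 5-AZA (exact p = 0.055, adjusted 0.0825), and without HDAC3i 1 the first was -0.17 (exact p = 0.03, adjusted 0.045). The 5-AZA difference in PSMB10/PSMB7 passed without combined 3 (0.22, exact p = 0.01, adjusted 0.015) and without the 2 libraries of highest mitochondrial share (0.25, exact p = 0.01, adjusted 0.025). Its unadjusted exact p was also 0.045 without HDAC3i 1 or 5-AZA 1, as was that of the 5-AZA difference in PSMB9/PSMB6 without HDAC3i 2, with adjusted values of 0.054, 0.0675 and 0.0675.

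**Figure D2:**
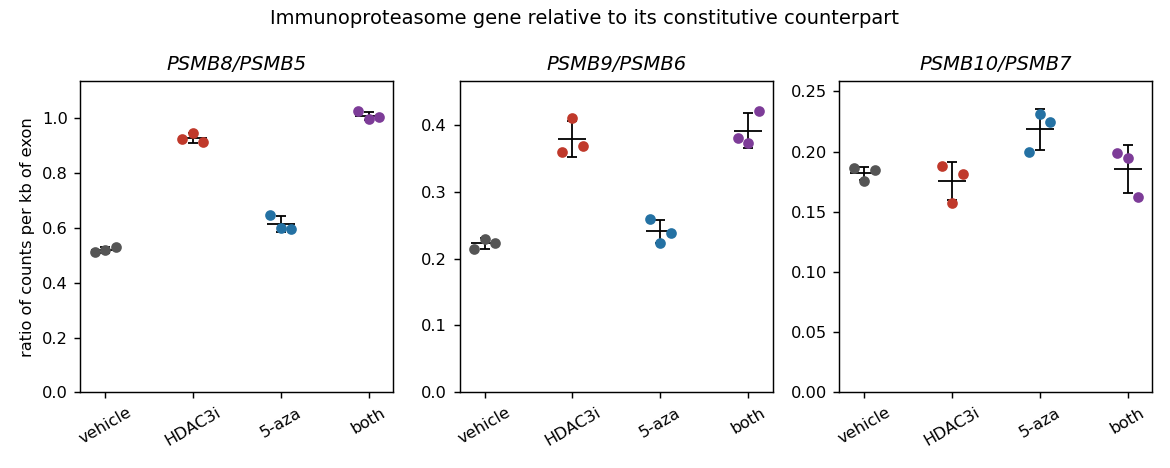
Ratio of counts per kilobase of exon (linear axes from 0) for the 3 pairs of inducible and constitutive catalytic genes, by library and group; bars are the mean ± SD of 3 libraries. PSMB8/PSMB5 goes from a mean of 0.521 in vehicle to 1.01 with both drugs, and PSMB10/PSMB7 has no such step.

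The 2 subunits of PA28, the activator that opens the 20S core without ATP, parted. PSME2 (PA28β, chr14:24143362-24147570) was at 159, 164 and 165 CPM in vehicle, 137, 126 and 132 with HDAC3i, 158, 164 and 170.0 with 5-AZA and 135, 147 and 129 with both. It fell with the inhibitor, with a log2 change of -0.31 ± 0.05 (SE, adjusted p = 3.4e-05), and all 6 libraries with it lay below the other 6. PSME1 (PA28α, chr14:24136163-24138967) was at 107, 96.4 and 98.5 CPM in vehicle, 110.1, 108 and 109 with HDAC3i, 94.8, 92.5 and 99.5 with 5-AZA and 110.3, 121 and 104 with both.

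The HDAC3i libraries stood above vehicle for PSME1 by a margin of 107 against 107.5, and the log2 change of 0.11 ± 0.06 (SE, adjusted p = 0.11) did not pass. It did in a fit of only these groups (adjusted p = 0.011), with the stricter filter (0.0062) and without the 2 libraries of highest mitochondrial share (0.043). In the combined group it was 0.15 ± 0.06 (SE, adjusted p = 0.031) against vehicle and 0.22 ± 0.06 (SE, adjusted p = 0.002) against 5-AZA. The first of these calls was lost without vehicle 2, vehicle 3 or combined 2 (adjusted p up to 0.21), with no filter (0.067) and with the library-name block (0.076). The other activators fell with the inhibitor: PSME3 (PA28γ, nuclear) from 389.9 ± 8.82 to 336 ± 4.96 CPM (SD, n = 3, log2 change -0.21 ± 0.05 SE, adjusted p = 0.0016), and PSME4 (PA200) from 135 ± 3.50 to 102 ± 4.43 CPM (-0.41 ± 0.05 SE, adjusted p = 6.7e-07).

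In the individual libraries PSME4 was at 136, 138 and 131 CPM in vehicle, 99.0, 107 and 100.2 with HDAC3i, 130.3, 130.4 and 134 with 5-AZA and 85.8, 98.7 and 93.8 with both. PSME3 was at 391, 381 and 398 CPM in vehicle, 334, 342 and 333 with HDAC3i, 416, 373 and 351 with 5-AZA and 339, 326 and 326 with both. For PSME4 the combined group lay just below HDAC3i alone, its highest library at 98.7 CPM beside a lowest of 99.0. That log2 difference of -0.14 did not pass the edgeR test (adjusted p = 0.13). Both groups lay below those without the inhibitor.

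The 20S alpha ring is the gate of the barrel, and 6 of its 7 subunits fell with the inhibitor against vehicle. Of all genes tested 24.9% fell, and of protein-coding genes of at least 50 CPM 51.2%. PSMA3 was at 212, 215 and 202 CPM in vehicle and 162, 173 and 166 with HDAC3i, a log2 change of -0.33 ± 0.05 (SE, adjusted p = 7.9e-06). PSMA6 changed by -0.61 ± 0.11 (SE, adjusted p = 2.5e-05) and PSMA5 by -0.27 ± 0.05 (SE, adjusted p = 1.2e-04). All 7 were lower with both drugs against 5-AZA, from -0.20 for PSMA5 to -1.23 for PSMA2. In that comparison 25.1% of all genes tested and 48.3% of protein-coding genes of at least 50 CPM were lower. PSMA1's call there was lost without 5-AZA 2 (adjusted p = 0.052) and without the 2 libraries of highest mitochondrial share (0.079). PSMA2 had a mean of 26.5 counts a library and its libraries overlapped in the inhibitor group (log2 change -0.29 ± 0.38 (SE, adjusted p = 0.55), but -1.06 with adjusted p = 0.032 without HDAC3i 3). Its call with both drugs was lost without combined 1 (adjusted p = 0.058) and without the 2 libraries of highest mitochondrial share (0.086).

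PSMA1, PSMA2 and PSMA6 were counted at 4.49 ± 0.0948, 0.0967 ± 0.0289 and 1.78 ± 0.0742 CPM per kilobase in vehicle, far under the 32.9 ± 1.76 to 217 ± 9.67 of the other 4. The ring holds its subunits in equal number. Unnamed genes of the annotation span exons of these 3 on the same strand and held 0 to 8 counts each, while reads lying over 2 genes were not counted. Their part in the low levels, and in the changes given for these 3 genes, was not tested. Those changes rest on the reads that were counted. PSMD9 shares exons in the same way.

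Of the beta ring's 4 non-catalytic subunits 1 fell, where 51.2% of protein-coding genes of at least 50 CPM did. PSMB3 was at 246, 229 and 264 CPM in vehicle and 217, 189 and 202 with HDAC3i, a log2 change of -0.28 ± 0.07 (SE, adjusted p = 8.6e-04). The others gave -0.06 for PSMB1, -0.08 for PSMB2 and -0.04 for PSMB4, each with an SE of 0.06 to 0.07 and an adjusted p of at least 0.4. Within this ring, then, all 3 constitutive catalytic genes and 1 of 4 structural genes passed the test downward, a difference that was not itself tested.

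The 6 ATPases of the 19S base unfold the substrate, and 4 fell, where 51.2% of protein-coding genes of at least 50 CPM did. PSMC6 was at 157, 145 and 143 CPM in vehicle, 111, 102 and 98.9 with HDAC3i, 159.8, 166 and 154 with 5-AZA and 92.9, 108 and 97.7 with both. Its log2 change was -0.51 ± 0.06 (SE, adjusted p = 5.3e-08) with the inhibitor and -0.69 ± 0.06 (SE, adjusted p = 2.3e-10) with both against 5-AZA. PSMC2 changed by -0.28 ± 0.05 (SE, adjusted p = 4.8e-05), PSMC1 by -0.27 ± 0.06 (SE, adjusted p = 4.1e-04) and PSMC3 by -0.27 ± 0.06 (SE, adjusted p = 4.2e-04). PSMC4 at 0.04 and PSMC5 at -0.04 did not pass. PSMC1 shares 76.1% of its exon bases with NRDE2 on the other strand, and its 13 pseudogenes held 10.8% as many counts as it did. Adding them changed no call.

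Of 11 non-ATPase subunits of the 19S particle, 8 fell and none rose. Of protein-coding genes of at least 50 CPM 51.2% fell and 17.1% rose. PSMD2, the large scaffold subunit of the base, was at 520.2, 481 and 493 CPM in vehicle, 389.8, 373 and 377 with HDAC3i, 498, 455 and 450.5 with 5-AZA and 372, 386 and 399.5 with both, and changed by -0.39 ± 0.05 (SE, adjusted p = 4.9e-07). PSMD12, of the lid, changed by -0.43 ± 0.06 (SE, adjusted p = 1.6e-06) and PSMD11, also of the lid, by -0.36 ± 0.07 (SE, adjusted p = 6.1e-05). The lid's deubiquitinase PSMD14 changed by -0.24 ± 0.06 (SE, adjusted p = 0.0012). PSMD3, PSMD4, the ubiquitin receptor, and PSMD13 did not pass, at -0.10, -0.11 and -0.02. Of the 3 base chaperones, PSMD9 (-0.26 ± 0.08 SE, adjusted p = 0.011) and PSMD10 (-0.15 ± 0.06 SE, adjusted p = 0.035) fell and PSMD5 was at -0.08 (adjusted p = 0.29).

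Some of these calls were narrow. With the stricter filter 23 genes were lower in place of 29, as PSMA4, PSMD1, PSMD7, PSMD9, PSMD10 and PSMC3IP no longer passed. That filter moved the log2 changes of these genes upward by a similar amount, as from -0.20 to -0.13 for PSMA4 and from -0.15 to -0.08 for PSMD1. The change of PSME1 moved likewise from 0.11 to 0.19, so the calls depend on where the scaling sets 0. PSMD10 also lost its call with no filter (adjusted p = 0.1), with DESeq2 (0.052) or its size factors (0.062), without the mitochondrially encoded genes (0.061), without the 2 libraries of highest mitochondrial share (0.051), and without vehicle 1, vehicle 3, HDAC3i 2, HDAC3i 3 or 5-AZA 1 (up to 0.16). PSMD1 lost it without vehicle 1, HDAC3i 2 or HDAC3i 3 (up to 0.086) and PSMD9 without HDAC3i 1 (0.06).

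PSMA8, the alpha subunit of the testis proteasome, rose from near nothing. It was at 0.359, 0.164 and 0.311 CPM in vehicle, 0.776, 1.02 and 0.827 with HDAC3i, 0.457, 0.819 and 0.380 with 5-AZA and 0.948, 1.26 and 0.731 with both, and had at most 45 counts in a library. The vehicle libraries lay below all others, and the log2 change was 1.64 ± 0.38 (SE, adjusted p = 6.9e-04) with the inhibitor and 0.99 ± 0.40 (SE, adjusted p = 0.14) with 5-AZA. Its rise with both drugs against 5-AZA (0.82 ± 0.34 SE, adjusted p = 0.041) was lost without 5-AZA 1, 5-AZA 3, combined 1 or combined 2 (adjusted p up to 0.197), with no filter (0.054), with DESeq2 (0.056) and without the 2 libraries of highest mitochondrial share (0.069). PSMB11, the thymic form, had counts in 2 of 12 libraries, 2 at most, which is within the limit of 3 counts that a library at 0 allows. Of the prefix-only genes, PSMC3IP, a recombination factor, changed by -0.27 ± 0.10 (SE, adjusted p = 0.018), lost without vehicle 2, HDAC3i 1 or HDAC3i 2 (up to 0.11), and PSME3IP1, a partner of PSME3, by 0.00 ± 0.06 (SE, adjusted p = 0.97).

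**Figure D3:**
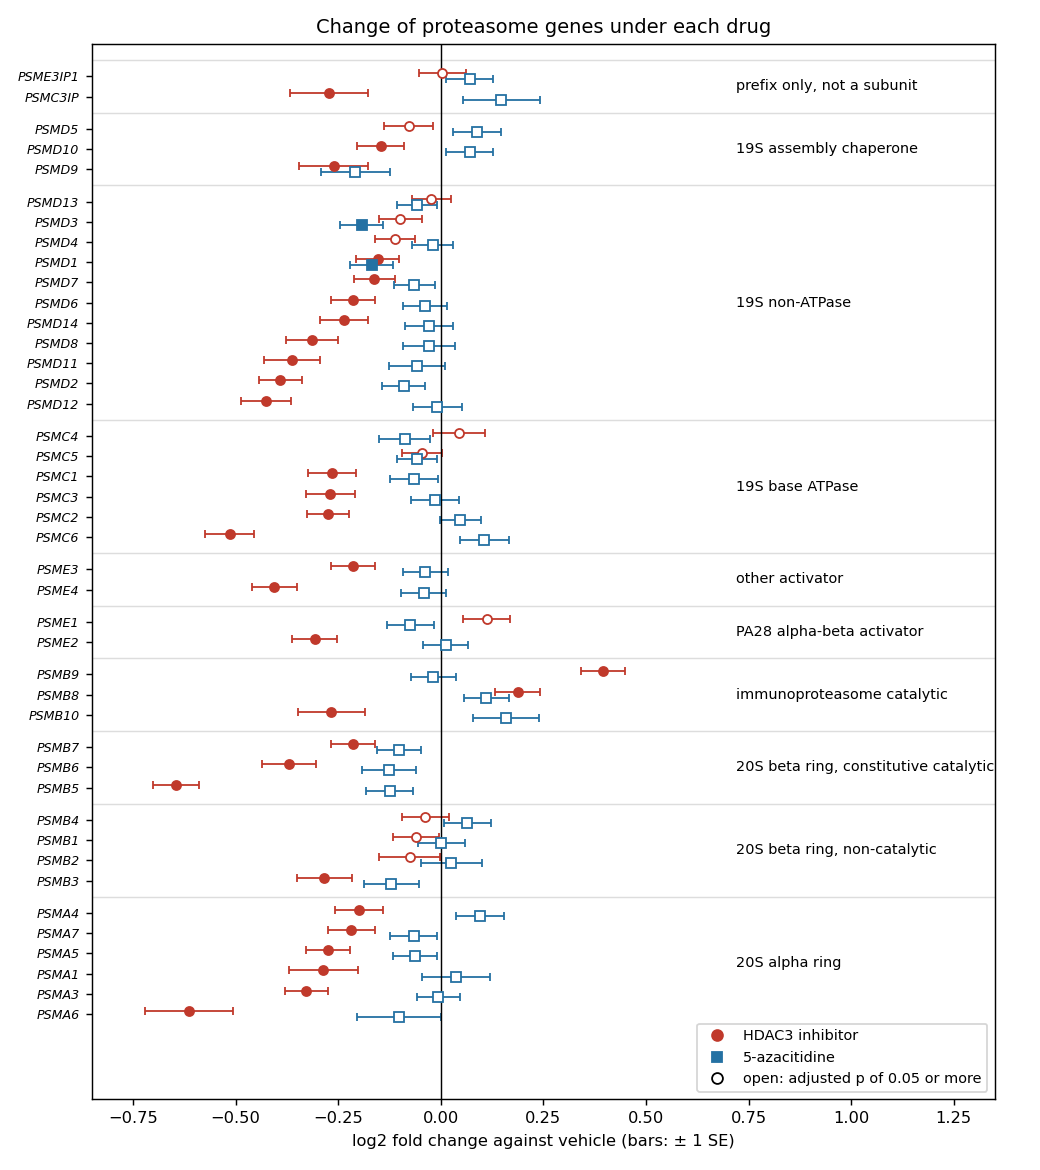
Log2 fold change against vehicle (x axis) of the proteasome genes by role, for HDAC3i (circles) and 5-AZA (squares); bars are ± 1 SE, and open symbols have an adjusted p of 0.05 or more. PSMB9 and PSMB8 stand to the right under the inhibitor and PSMB5 farthest to the left; PSMA2 and PSMA8 (about 1 CPM or less) and PSMB11 are not drawn.

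Over the 44 genes tested, 3 were called higher with HDAC3i against vehicle, where 26.4% of all genes tested were, and 29 lower, where 24.9% were. The median log2 change was -0.23, beside 0.00 over all genes. Abundance bears on this comparison: of the 3988 protein-coding genes of at least 50 CPM, 17.1% were called higher and 51.2% lower, with a median of -0.15, and the 36 proteasome genes at that level gave 2 higher and 24 lower with a median of -0.21. Libraries of the groups did not overlap for 4 genes higher and 33 lower of the 44, where 60.1% of all genes did not overlap either way. The 5 inducible genes gave 2 higher, 2 lower and 1 not called, and the 36 other subunits, activators and chaperones 0 higher and 26 lower, with 27 at an unadjusted p under 0.05. DESeq2 and limma voom were also run on the 44 genes and called 3 higher each, and 28 and 30 lower.

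**Figure D4:**
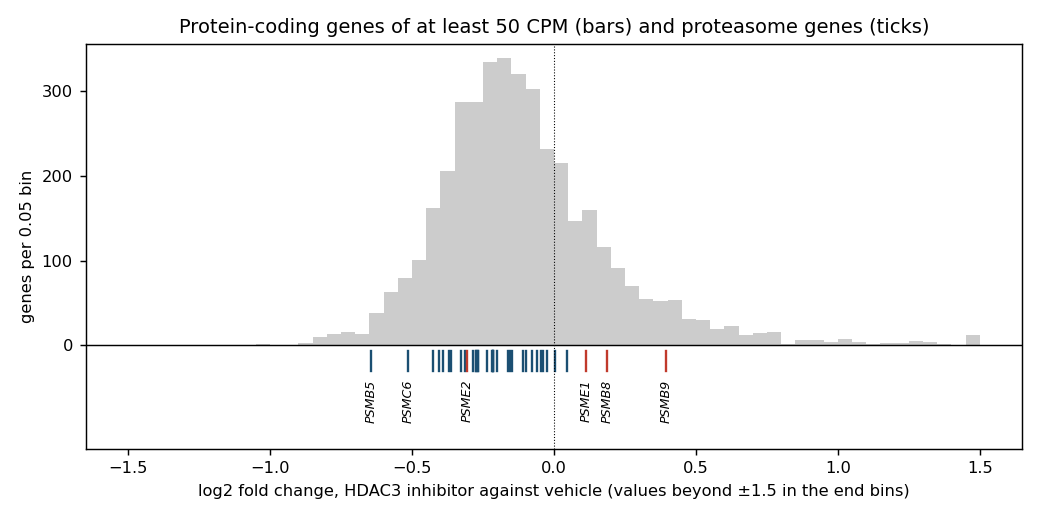
Number of protein-coding genes of at least 50 CPM per 0.05-wide bin of log2 fold change, HDAC3i against vehicle (bars), and the 36 proteasome genes at that level (ticks under the axis, red for the inducible ones without PSMB10, which is below 50 CPM); the end bins hold all values beyond 1.5 either way. The bars centre below 0, most ticks lie among them, and PSMB9 and PSMB5 stand toward opposite ends.

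PSMB9's rise was exceeded by 265 of those 3988 genes, or 6.64%, and PSMB8's by 561, or 14.1%. At the other end 224 genes, or 5.62%, fell more than PSMC6, and 414, or 10.4%, more than PSMD12. With both drugs against 5-AZA, 98 genes, or 2.46%, fell more than PSMC6, 207, or 5.19%, more than PSMB5, and 308, or 7.72%, rose more than PSMB9.

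With 5-AZA alone 2 of the 44 were called lower and 0 higher, where 4.75% and 4.31% of all genes were, and 11.2% and 4.89% of protein-coding genes of at least 50 CPM. At an unadjusted p under 0.05 there were 5, of which PSMA8 alone was higher, and DESeq2 and limma voom called 2 each, none higher. PSMD3, a lid subunit, was at 326, 307 and 341 CPM in vehicle and 296, 281 and 274 with 5-AZA, and its log2 change was -0.19 ± 0.05 (SE, adjusted p = 0.019). PSMD1, the other large scaffold subunit of the base, was at 277, 260.5 and 262 and 239, 245 and 227 CPM, a change of -0.17 ± 0.05 (SE, adjusted p = 0.04). For both, all 5-AZA libraries lay below all vehicle libraries. Without vehicle 1, vehicle 3, 5-AZA 2 or 5-AZA 3 neither was called, and without vehicle 2, 5-AZA 1, HDAC3i 2 or HDAC3i 3 only PSMD3 was.

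With both drugs against vehicle 4 of the 44 were called higher (29.6% of all genes) and 30 lower (27.5%). Among protein-coding genes of at least 50 CPM the shares were 19.7% and 53.6%, and the 36 proteasome genes there gave 3 and 25. The 4 were PSMB8, PSMB9, PSMA8 and PSME1. PSMB5 was lowest of those 36, with a log2 change of -0.70 ± 0.06 (SE, adjusted p = 4.4e-11), and PSME4 changed by -0.54 ± 0.06 (SE, adjusted p = 3.1e-09). PSMB10 fell (-0.23 ± 0.08 SE, adjusted p = 0.019), a call lost without vehicle 1, vehicle 3 or combined 3 (adjusted p up to 0.13), with the stricter filter (0.12) and without the 2 libraries of highest mitochondrial share (0.16).

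With both drugs against 5-AZA, a comparison that shares no library with HDAC3i against vehicle, 4 were higher (28.7% of all genes) and 29 lower (25.1%). Among protein-coding genes of at least 50 CPM the shares were 21.3% and 48.3%, and the 36 proteasome genes there gave 3 higher and 24 lower. Of the 29 genes lower in each comparison 27 were shared, 93.1% of each list. PSMD1 and PSMD9 were lower only without 5-AZA in this count and PSMA2 and PSMD4 only with it. PSMD4's call (adjusted p = 0.041) was lost in 12 of 24 alternatives. All 3 genes higher in the first were among the 4 of the second, the fourth being PSME1. Across the 44 genes the log2 changes of the 2 comparisons had a Pearson r of 0.81, as a description, since the genes share libraries and abundance.

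With both drugs against HDAC3i 0 of the 44 were called, where 7.34% of all genes were called either way. Among the 44, 3 had an unadjusted p under 0.05 (PSMA7, PSMD5 and PSME4), and DESeq2 and limma voom called 0. PSMD5, a base chaperone, was nearest, at 35.3, 34.1 and 35.3 CPM with HDAC3i and 39.6, 38.9 and 39.8 with both (0.18 ± 0.06 SE, adjusted p = 0.069), and its groups did not overlap. PSMB8 differed by 0.06 ± 0.05 (SE, adjusted p = 0.57). The interaction, the effect of 5-AZA with the inhibitor minus that without it, called 0 of 44 by edgeR, DESeq2 and limma voom, with 0 at an unadjusted p under 0.05, where 0.716% of all genes were called. For PSMB9 it was 0.00 ± 0.08, for PSMB8 -0.05 ± 0.08 and for PSMB5 0.07 ± 0.08 (log2, SE), and for PSMB10 -0.12 ± 0.11.

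The genes whose log2 CPM followed each inducible gene most closely over the 12 libraries were looked for among 9354 protein-coding genes of at least 5 CPM, by Pearson r, as a description of libraries that differ mostly by the inhibitor. For PSMB8 they were RPL15 (0.97), RPL13A (0.96) and EMP3 (0.94). For PSMB9 they were CHCHD2 (0.99), TESC (0.99) and P4HB (0.98). For PSMB10 they were HCCS (0.96), MRPS7 (0.96) and RNF166 (0.96), for PSME1 ZNRF1, FOXD1 and DHX40 (all 0.91), and for PSME2 TXNDC17 (0.99), SUMO3 (0.98) and ALKBH2 (0.98). Among themselves, PSMB8 and PSMB9 had r = 0.80, PSMB10 and PSME2 0.88, and PSMB9 and PSME2 -0.87.

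Genes that assemble the proteasome, bind it or control it moved in both directions with HDAC3i against vehicle. Their counts stand beside 26.4% higher and 24.9% lower over all genes tested, and 17.1% and 51.2% over protein-coding genes of at least 50 CPM. In vehicle 4 of the 6 assembly chaperones, 10 of the 11 bound factors, 13 of the 15 ubiquitin genes and 16 of the 20 MHC class I genes were at that level. Of the 10 genes listed around NRF1 only 5 were, and of the 16 listed interferon-gamma genes only 6. Of 6 assembly chaperones 3 fell and 1 rose: PSMG1, which pairs with PSMG2 to build the alpha ring, changed by -0.49 ± 0.05 (SE, adjusted p = 1.3e-08), PSMG2 by -0.26 ± 0.05 (SE, adjusted p = 2.2e-04), PSMG4 by -0.27 ± 0.08 (SE, adjusted p = 0.0041) and PSMG3 by 0.16 ± 0.06 (SE, adjusted p = 0.026), and the core maturation factor POMP was at -0.06. Of 11 other subunits and bound factors 7 fell and 1 rose, AKIRIN2, which carries proteasomes into the nucleus, by 0.52 ± 0.05 (SE, adjusted p = 1.6e-09). ECPAS, a proteasome adaptor, changed by -0.41 ± 0.05 (SE, adjusted p = 4.2e-07), the deubiquitinase USP14 by -0.33 ± 0.06 (SE, adjusted p = 1.8e-05) and the ubiquitin ligase UBE3C by -0.24 ± 0.05 (SE, adjusted p = 5.9e-04). Of 9 tested genes around NRF1, the factor that induces proteasome genes when proteolysis fails, 4 fell and 0 rose. NGLY1, which de-glycosylates NRF1, changed by -0.55 ± 0.05 (SE, adjusted p = 8.6e-10). NFE2L2, the gene of the related factor NRF2, changed by -0.32 ± 0.07 (SE, adjusted p = 2e-04), MAFG, a dimer partner of both, by -0.29 ± 0.07 (SE, adjusted p = 0.0016) and the ubiquitin ligase SYVN1 by -0.16 ± 0.06 (SE, adjusted p = 0.024), while NFE2L1, the gene of NRF1 itself, was at -0.06 (adjusted p = 0.33).

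Of 15 genes for ubiquitin and delivery 7 fell and 2 rose: the shuttles UBQLN1 and UBQLN2 changed by -0.41 ± 0.05 (SE, adjusted p = 9e-08) and -0.52 ± 0.08 (SE, adjusted p = 4.2e-06), SQSTM1, an autophagy receptor that binds ubiquitin, by -0.41 ± 0.07 (SE, adjusted p = 1.9e-05) and NPLOC4, a cofactor of the unfoldase VCP, by -0.29 ± 0.05 (SE, adjusted p = 2.1e-05). The share that fell, 7 of 15, is near that of abundant genes. The list for peptide transport, trimming and MHC class I, the pathway downstream of the immunoproteasome, gave 9 higher and 8 lower of 20. HLA-E rose by 1.04 ± 0.05 (SE, adjusted p = 2.6e-15), B2M, the class I light chain, by 0.70 ± 0.05 (SE, adjusted p = 3.2e-11), HLA-C by 0.64 ± 0.05 (SE, adjusted p = 1.8e-10) and ERAP2, a trimming peptidase, by 0.74 ± 0.08 (SE, adjusted p = 1.2e-08), with HLA genes so alike and variable that reads may be assigned unevenly. TAP1, PSMB9's neighbour, was at 0.12 (adjusted p = 0.095), and NLRC5, the class I transactivator, at -0.20 (adjusted p = 0.0083). Of 14 tested interferon-gamma genes 5 rose and 4 fell: SOCS1, the feedback inhibitor, rose by 1.48 ± 0.10 (SE, adjusted p = 1.7e-12), IFNGR1 by 0.54 ± 0.06 (SE, adjusted p = 1.4e-08) and IRF1 by 0.76 ± 0.09 (SE, adjusted p = 1.3e-07), and IRF8 fell by 0.44 ± 0.05 (adjusted p = 9e-08). The median log2 change was -0.16, -0.23, -0.11, -0.11, 0.09 and 0.08 in these 6 lists in the order given, beside 0.00 over all genes and -0.15 over protein-coding genes of at least 50 CPM.

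With 5-AZA alone the counts were smaller, beside the 4.31% higher and 4.75% lower over all genes. Over protein-coding genes of at least 50 CPM the shares were 4.89% and 11.2%. The assembly chaperones gave 0 calls, the bound factors 1 lower, the NRF1 genes 1 lower and the ubiquitin genes 1 higher and 1 lower. The MHC class I list gave 2 higher and 3 lower, with B2M at 0.25 ± 0.05 (SE, adjusted p = 0.0037) and THOP1, a cytosolic peptidase, at -0.33 ± 0.06 (SE, adjusted p = 3e-04), and the interferon-gamma list 0, where SOCS1 at 0.31 ± 0.11 (SE, adjusted p = 0.062) was nearest. With both drugs against 5-AZA the 6 lists in the same order gave 0, 2, 0, 2, 11 and 9 higher and 3, 5, 4, 5, 4 and 4 lower. Of all genes 28.7% were higher and 25.1% lower, and of protein-coding genes of at least 50 CPM 21.3% and 48.3%. HLA-E was at 1.10 ± 0.05 (SE, adjusted p = 7.9e-16), AKIRIN2 at 0.68 ± 0.05 (SE, adjusted p = 6.2e-12) and NGLY1 at -0.48 ± 0.05 (SE, adjusted p = 7.3e-09).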

How the data were processed

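Messenger RNA of OCI-Ly7 cells was sequenced in 12 libraries, grouped by their titles. The authors deposited a table of expected counts. According to its header, featureCounts 2.1.1 counted reads over exons of 78892 genes of annotation release 114 on GRCh38, splitting reads with several alignments into fractions, without strand and leaving out reads over more than 1 gene; the submitters' processing notes add cutadapt 5.1, STAR 2.7.11b and Subread 2.1.2. Whole numbers (tolerance 1e-06) made up 96.9% of the values, and 30 of the 45 proteasome genes had a fraction in some library. The header names 16 libraries; 4 are not analysed here. The unit of 1 count, read or pair, is not given in the sources used here.

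Counts were rounded to whole numbers and fitted in R 4.3.3 with edgeR 4.0.16: filterByExpr left 17869 genes with 99.93% of the counts, libraries were scaled by TMM, all 12 libraries entered 1 fit with a mean per group, and the quasi-likelihood test (two-sided) was adjusted by Benjamini-Hochberg over all genes of a comparison. Calls needed an adjusted p below 0.05. CPM values are TMM-scaled. Ratios of gene pairs were tested by exact permutation over libraries with numpy 2.4.6, within strata of the other drug. The fit was tested on simulated counts with changes put into the HDAC3i group. It recovered 48%, 64%, 78% and 92% of changes of 1.25, 1.5, 2 and 4-fold, with 6 false calls. Few genes were changed there, in either direction, so the scaling was not tested under a broad shift.

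The proteasome genes and the 6 lists around them were chosen with earlier results of these data known. Named were the inducible genes, their counterparts and the PSME3, PSME4, PSMA8 and PSMB11 genes in full, in each other role the 3 with the smallest adjusted p, every member called with 5-AZA, extremes of each comparison, the 4 of smallest adjusted p in each list for HDAC3i against vehicle (fewer in the other comparisons, for length), and the 3 genes most like each inducible gene; POMP, NFE2L1, TAP1, NLRC5 and members that did not pass were added for their role after their values were seen. Biotypes came from GENCODE 29 and start-site windows from RefSeq. The alternatives were DESeq2 1.42.0 size factors, library totals, no filter, 5 CPM in 3 libraries, DESeq2 or limma 3.58.1 voom, only the groups compared, 2 replicate blocks, pseudogene counts added, no mitochondrially encoded genes, without the 2 libraries of highest mitochondrial share, and each library left out. Figures were drawn with Python 3.11.15 and matplotlib 3.10.9.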

Additional observations from a re-analysis of the deposited data

How the results depend on the processing

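Among results for single genes and settings, 6154 kept their side of the threshold, 100 lost a call and 24 gained one, and no value called in either fit turned its direction. Leaving out each library gave 28 to 33 genes called for HDAC3i against vehicle, 32 to 35 for both drugs against vehicle and 28 to 33 for both against 5-AZA. With 5-AZA against vehicle the 2 genes called, both lower, were 1 with DESeq2 size factors and 1 with no filter on low counts, and 0 to 2 over the libraries left out. For both drugs against 5-AZA the 4 genes higher were 2 with no filter and 2 to 4 over the libraries left out. The stricter filter also called PSMB4 and PSMD5 higher with both drugs against vehicle, and PSMD13 higher with both against 5-AZA. Their log2 changes in that fit were 0.14, 0.18 and 0.14 (adjusted p = 0.028, 0.0074 and 0.0085). For both drugs against HDAC3i, 0 genes became 1 higher with the stricter filter (PSMD5), and leaving out each library gave 0 to 1 called and 0 to 1 lower (PSME4, without combined 2). The inhibitor difference in log2 PSMB10/PSMB7 ran from -0.18 to -0.10 over the libraries left out and was -0.17 without HDAC3i 1 (exact permutation p = 0.03); that in PSMB8/PSMB5 ran from 0.77 to 0.80 and in PSMB9/PSMB6 from 0.71 to 0.76. The replicate numbers did not pair the libraries: deviations of same-numbered libraries had a correlation of -0.21 to 0.38 by title and -0.19 to 0.38 by library name, and 4 and 3 of 12 libraries correlated best with their own number. A replicate block by title gave 32 genes called for HDAC3i against vehicle and the block by library name 33, against 32 without; the library-name block called 1 gene lower, PSMC4, for both drugs against HDAC3i. The causes were not tested. With 3 libraries a group and an SE near 0.06 on the log2 scale, small changes can miss the threshold.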
